A study of Homo sapiens with 18 samples.

Results

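The genes described here are the 8 human E2F transcription factors (E2F1 to E2F8) and the RB family genes RB1 and RBL1, 10 of the 40916 gene symbols counted. They were taken by symbol, by a rule that uses no measured value, but this set was chosen with earlier results of these data known. All 10 had counts in every library and passed the filter on low counts in every comparison. Poly(A) RNA was sequenced from 18 libraries in 6 groups of 3 biological replicates. MCF10A, a non-transformed human mammary epithelial line that carried an H2B-GFP reporter here, was grown in medium with horse serum, EGF, hydrocortisone, cholera toxin and insulin. HCT116, a human colorectal carcinoma line, here an unlabelled derivative null for 1 gene, was grown in another medium with fetal bovine serum. The mixed cultures were described as equal parts of these lines. Cultures of each of the 3 kinds were not irradiated (NIR) or received 10 Gy of ionising radiation (IR), and no agent other than radiation separates the treated libraries from their controls. The sample titles give the harvest as day 2, whereas the series text gives 72 h after irradiation.

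E2F proteins bind DNA with a DP partner and control genes of DNA replication and cell cycle progression. E2F1, E2F2 and E2F3 are classed as activators, E2F4 and E2F5 as repressors that act with the pocket proteins p130 (RBL2), p107 (RBL1) and RB1, E2F6 as a repressor that binds no pocket protein, and E2F7 and E2F8 as atypical repressors that bind DNA without a DP partner. Cyclin-dependent kinases phosphorylate the pocket proteins and release E2F. CDK inhibitors such as p21 (CDKN1A) keep the pocket proteins bound, and several E2F genes are themselves E2F targets.

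The libraries held 25737818 to 40839835 counts, and levels are given as CPM, counts per 1000000 of the library total. Of 6 basal mammary markers, all 6 were at a mean of 1 CPM or more in MCF10A, where their sum was 8139 to 8736 CPM in NIR and 15121 to 15355 CPM in IR. In HCT116 it was 101.5 to 110.8 CPM in NIR and 110.9 to 134 CPM in IR. The markers thus moved with irradiation: 4 of 6 rose in MCF10A, 4 of 5 tested in HCT116 and all 6 in the mixed cultures. Among all genes tested 26.2%, 25.3% and 24% rose. In HCT116, KRT17 rose by a log2 fold change of 3.70, but at very low levels, from a mean of 0.127 to 1.69 CPM. KRT5 (0.117 and 1.54 CPM) and KRT14 (0.288 and 0.921 CPM) were also very low there. The part of these markers in the results below was not tested. Of 6 intestinal markers, 2 reached 1 CPM in HCT116, with a sum of 307 to 339 CPM, and CDX1 had no counts there. Most of that sum was EPCAM, at means of 314.7 CPM in NIR and 300.9 CPM in IR. EPCAM was also present in MCF10A, at 9.87 and 8.99 CPM. CDX2 was at 10.0 and 12.6 CPM in HCT116, and VIL1, CDH17 and LGALS4 stayed under 1 CPM there. The mixed libraries went against their description. By genes specific to each line, MCF10A supplied 0.503%, 0.438% and 0.399% of the counted RNA in the NIR mixtures and 1.29%, 1.17% and 1.27% in the IR mixtures, or a mean of 3.59% in IR by non-negative least squares, so mixed values below are those of mostly HCT116 RNA. Fewer cells of a line and less RNA per cell cannot be told apart in such bulk libraries. Mitochondrial genes took 5.10% to 5.32% of counts in MCF10A NIR and 6.06% to 6.35% in IR. In HCT116 they took 8.42% to 8.75% in NIR and 11.5% to 12.3% in IR, so this share moved with irradiation beside every result below, and its part in them was not tested. The p-values measure only the spread between the 3 libraries of each group.

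RefSeq promoter windows (GRCh38.p14, 250 bases before to 50 bases after a start site) were found for 8 of the 10 genes, all but E2F5 and E2F8, and were searched on both strands for the E2F octamers TTTCGCGC, TTTGGCGC, TTTCCCGC and TTTGCCGC. The RB1 window lies at a start within the gene, so the promoter at its first exon was not searched. E2F1, E2F2, E2F3 and RBL1 held at least 1 octamer, and 3.31% of all 35116 windows did. The 100 bases before the start are shown for these genes, 5′ to 3′ on the gene's strand with the octamers in capitals, and for E2F7 and E2F4, whose windows held no octamer, so that genes with and without a match can be read side by side.
E2F1, chr20:33686386-33686485, minus strand: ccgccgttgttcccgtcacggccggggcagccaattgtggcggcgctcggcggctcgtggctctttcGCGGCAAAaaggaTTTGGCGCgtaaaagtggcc
E2F2, chr1:23531234-23531333, minus strand: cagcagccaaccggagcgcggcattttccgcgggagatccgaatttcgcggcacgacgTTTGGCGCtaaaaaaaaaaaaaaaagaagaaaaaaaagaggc
E2F3, chr6:20401779-20401878, plus strand: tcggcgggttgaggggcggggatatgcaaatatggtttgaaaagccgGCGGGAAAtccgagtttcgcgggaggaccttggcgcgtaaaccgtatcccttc
RBL1, chr20:37095998-37096097, minus strand: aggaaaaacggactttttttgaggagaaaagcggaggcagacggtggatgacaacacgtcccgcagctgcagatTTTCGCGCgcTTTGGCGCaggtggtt
E2F7, chr12:77065570-77065669, minus strand: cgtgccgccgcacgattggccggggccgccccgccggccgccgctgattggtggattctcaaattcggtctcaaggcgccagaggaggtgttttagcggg
E2F4, chr16:67192055-67192154, plus strand: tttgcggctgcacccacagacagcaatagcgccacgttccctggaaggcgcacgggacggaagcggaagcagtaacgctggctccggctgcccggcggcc
Counted from the start site, the E2F1 octamers lay at -33 to -26 (TTTGCCGC, on the other strand) and -20 to -13 (TTTGGCGC), and those of RBL1 at -26 to -19 (TTTCGCGC) and -16 to -9 (TTTGGCGC). E2F2 had TTTGGCGC at -42 to -35, and E2F3 had TTTCCCGC at -53 to -46 on the other strand, in the first of its 2 windows. Within the 100 bases before the start, 1.15% of all windows held an octamer. Of the cell cycle homology region hexamers TTTGAA and TTCGAA, the first occurred in the same E2F3 window at -65 to -60, and 16.4% of all windows held at least 1 of them. A match is a description of the letters and says nothing of binding in these cells.

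Without irradiation, the lines differed most in E2F8 and E2F2, both higher in HCT116, while RB1, RBL1 and E2F7 were lower there. Counts were compared with edgeR's quasi-likelihood test, and a gene passed at a Benjamini-Hochberg adjusted p under 0.05 over all genes tested. Of the 10 genes, 8 passed, 4 higher in HCT116 and 4 lower. Over all 16568 genes tested, 74.8% passed, 38.7% higher and 36.1% lower, so the share of the 10 that differed was near that of all genes. The split of 6415 genes higher to 5974 lower rests on TMM, and became 7807 to 4704 with upper-quartile factors and 7772 to 4728 with library size alone.

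E2F8, an atypical repressor, stood at 9.41, 9.58 and 9.56 CPM in MCF10A NIR replicates 1 to 3 and at 44.4, 40.9 and 42.7 CPM in HCT116 NIR. All HCT116 libraries were far above all MCF10A libraries, with a mean CPM 4.48 times as high before TMM scaling. The fitted log2 difference, which includes that scaling, was 1.97 (SE 0.091, adjusted p = 1.09e-12). For E2F2, an activator, the MCF10A values were 13.5, 12.9 and 11.3 CPM and the HCT116 values 40.4, 42.3 and 47.1 CPM. These groups did not overlap either, and the log2 difference was 1.58 (SE 0.10, adjusted p = 9.41e-11). E2F1, which is both activator and E2F target, was at 26.5, 25.1 and 26.4 CPM in MCF10A and 41.5, 38.0 and 42.5 CPM in HCT116 (log2 difference 0.45, SE 0.081, adjusted p = 7.33e-05). E2F6 was 23.9 ± 1.06 CPM in MCF10A and 34.99 ± 2.34 CPM in HCT116 (SD, n = 3), a log2 difference of 0.35 (adjusted p = 0.00111) with no overlap.

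The pocket protein gene RB1 was lower in HCT116. Its MCF10A NIR libraries held 150.6, 134.7 and 147.1 CPM, and those of HCT116 held 112.5, 107.8 and 112.1 CPM, all below the lowest MCF10A value (log2 difference -0.58, SE 0.056, adjusted p = 4.04e-08). RBL1, which encodes p107, was at 67.7 ± 2.72 CPM in MCF10A and 48.6 ± 2.39 CPM in HCT116 (log2 difference -0.68, adjusted p = 3.67e-08). E2F7 was at 82.2 ± 2.54 and 63.9 ± 4.54 CPM (log2 difference -0.56, adjusted p = 3.24e-07), so the atypical E2F genes E2F7 and E2F8 differed between the lines in opposite directions. E2F4 was at 71.9 ± 3.59 CPM in MCF10A and 73.2 ± 3.02 CPM in HCT116. These groups overlapped, and the log2 difference of -0.17 (adjusted p = 0.0234), which includes the TMM scaling, turned to 0.029 with upper-quartile factors and to 0.026 with library size alone. Those settings moved the median over all genes from 0.05 to 0.25 in both cases, and on both, E2F3 and E2F5 passed as higher in HCT116 (log2 differences of 0.37 and 0.27 with upper-quartile factors, against 0.16 and 0.07 with TMM, adjusted p = 0.0647 and 0.594). The E2F4 call was also lost, at a log2 difference of -0.15, without MCF10A NIR replicate 2, HCT116 NIR replicate 1 or HCT116 NIR replicate 2. E2F3 passed at 0.25 without MCF10A NIR replicate 1 and at 0.19 with counts halved.

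**Figure D1:**
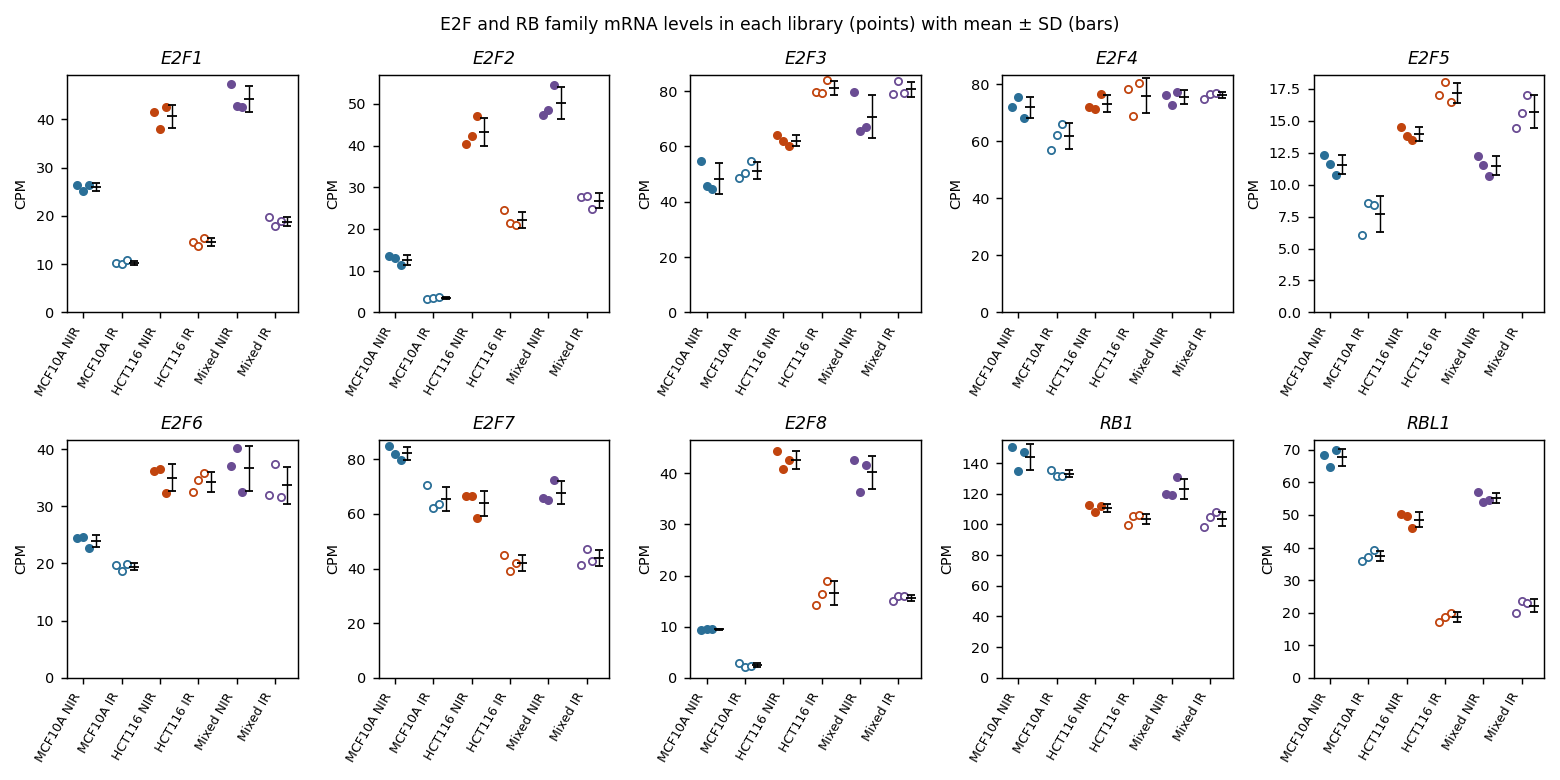
Level of each E2F and RB family gene in CPM (vertical axes from 0) in every library (points; filled NIR, open IR) with the group mean and SD (bars, n = 3). E2F1, E2F2, E2F8 and RBL1 are lower in every IR group than in its NIR group, E2F8 is 9.52 CPM in MCF10A NIR against 42.7 CPM in HCT116 NIR, and E2F4 stays between 57.0 and 80.6 CPM in all libraries.

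Levels of different genes were compared per kilobase of annotated exon (GENCODE v29, GRCh38). Beside the genes placed above, that annotation puts E2F6 at chr2:11444375-11466177, E2F8 at chr11:19224063-19241620 and RB1 at chr13:48303726-48599436. Annotated pseudogenes of E2F3, E2F4 and E2F6 (such as E2F3P2), which could share reads with these genes, reached at most 0.107 CPM in any library. Such counts cannot show whether reads were shared, since reads that match both places may have been counted at neither. In MCF10A NIR, RB1 (22.3 ± 1.29 CPM per kb) and E2F4 (20.1 ± 1.00) stood highest, and their library ranges overlapped. E2F7 (13.0 ± 0.40), RBL1 (11.4 ± 0.46), E2F1 (10.4 ± 0.31) and E2F3 (9.35 ± 1.09) followed, with RBL1 above all E2F1 libraries and the E2F1 range within that of E2F3. E2F6 lay at 5.87 ± 0.26 CPM per kb, while E2F2 (2.31 ± 0.21), E2F8 (2.30 ± 0.02) and E2F5 (1.95 ± 0.13) were lowest, with E2F2 overlapping both of the others. HCT116 NIR had another order. E2F4 came first at 20.4 ± 0.84 CPM per kb, and RB1 (17.2 ± 0.40) and E2F1 (16.3 ± 0.94) followed with overlapping ranges. E2F3 (12.0 ± 0.36) was above E2F8 (10.3 ± 0.43) and E2F7 (10.1 ± 0.72), which overlapped each other. E2F6 (8.60 ± 0.58), RBL1 (8.17 ± 0.40) and E2F2 (7.92 ± 0.63) could not be ordered beyond their spread, and E2F5 (2.35 ± 0.09) was again the lowest of the E2F genes. After irradiation RB1 and E2F4 remained the highest of the 10 in MCF10A (20.6 ± 0.35 and 17.2 ± 1.30 CPM per kb), and E2F2 (0.64 ± 0.03) and E2F8 (0.59 ± 0.09) became the lowest. In HCT116 IR, E2F4 (21.2 ± 1.73), RB1 (16.1 ± 0.53) and E2F3 (15.7 ± 0.48) led, while RBL1 (3.11 ± 0.25) and E2F5 (2.90 ± 0.14) closed the order with overlapping ranges.

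Summed by class on this per-length scale, the activators E2F1 to E2F3 made up 33.8% ± 1.32 of all E2F mRNA in MCF10A NIR, and the repressors E2F4 with E2F5 33.8% ± 1.20 (SD, n = 3). In HCT116 NIR the activators made up 41.1% ± 0.90 and E2F4 with E2F5 25.9% ± 0.77. Irradiated HCT116 libraries held 37.2% ± 0.51 activators and 35.02% ± 1.01 E2F4 with E2F5, and the atypical genes E2F7 and E2F8 went from 23.2% ± 0.93 to 15.5% ± 0.19. In MCF10A the activators went from 33.8% to 30.0% ± 0.48 and E2F4 with E2F5 to 37.8% ± 2.10, while E2F7 with E2F8 were at 23.5% ± 0.35 and 22.4% ± 2.16, groups that overlapped. These shares are descriptive and depend on exon lengths that count every annotated exon.

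**Figure D2:**
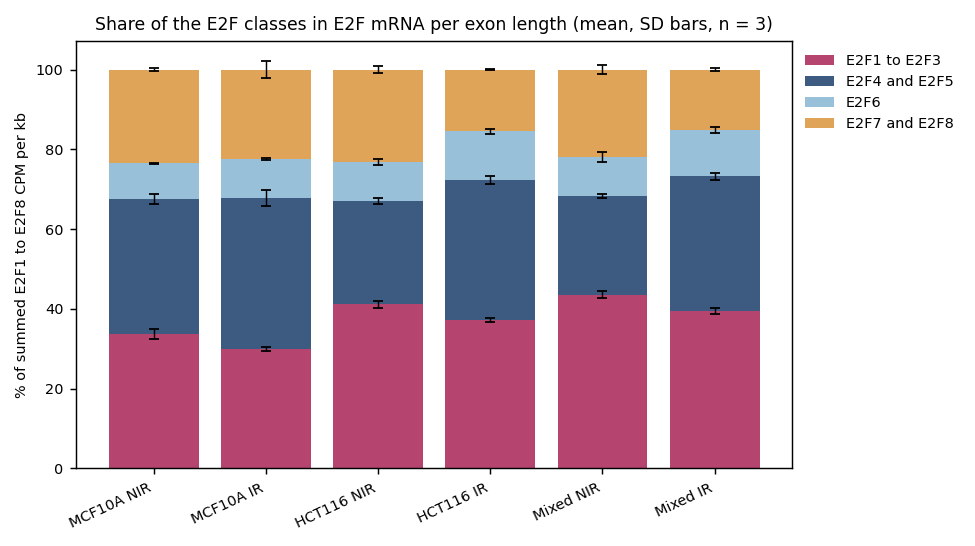
Share of each E2F class in the summed CPM per kb of E2F1 to E2F8 (stacked bars from 0, mean of 3 libraries, with SD bars at each boundary) in the 6 groups. The E2F7 and E2F8 share is 23.2% in HCT116 NIR and 15.5% in HCT116 IR, and 23.5% and 22.4% in MCF10A.

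After 10 Gy, the E2F1, E2F2, E2F7, E2F8 and RBL1 mRNAs were lower in both lines and in the mixed cultures, whereas E2F3 was not lower in any, and E2F5 fell in MCF10A but rose in HCT116. In MCF10A, 9 of the 10 genes passed the test and all 9 fell, against 55.4% of all genes that passed, 26.2% higher and 29.2% lower (3976 and 4419 genes, or 4838 and 3579 with upper-quartile factors). In HCT116, 7 passed, 2 higher and 5 lower, against 52.5% of all genes, 25.3% higher and 27.2% lower. In the mixed cultures, 7 passed, 1 higher and 6 lower, against 49.4% of all genes, 24% higher and 25.4% lower. The median log2 fold change of the 10 genes was -0.48 in MCF10A, -0.34 in HCT116 and -0.47 in the mixed cultures, and that of all genes tested was 0.0035, 0.0072 and 0.012. The share that fell among the 10 was above the background in each culture, a description of this set and not a test of it.

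The activator E2F1 fell in each culture. In MCF10A it was at 26.5, 25.1 and 26.4 CPM in NIR and at 10.2, 9.99 and 10.8 CPM in IR. All IR libraries were far below all NIR libraries, and the IR mean was 39.8% of the NIR mean (log2 fold change -1.35, SE 0.096, adjusted p = 1.55e-12). In HCT116 the NIR values were 41.5, 38.0 and 42.5 CPM and the IR values 14.6, 13.8 and 15.5 CPM, again without overlap (log2 fold change -1.47, SE 0.092, adjusted p = 5.05e-12). The mixed cultures went from 44.2 ± 2.74 to 18.8 ± 0.93 CPM (log2 fold change -1.26, adjusted p = 4.68e-11).

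E2F2, the second activator, fell further in MCF10A than in HCT116. Its MCF10A libraries were at 13.5, 12.9 and 11.3 CPM before and 3.31, 3.50 and 3.65 CPM after irradiation, which left 27.7% of the NIR mean (log2 fold change -1.87, SE 0.14, adjusted p = 7.06e-12). In HCT116 it was at 40.4, 42.3 and 47.1 CPM and at 24.4, 21.3 and 20.9 CPM, which left 51.4% (log2 fold change -0.95, SE 0.092, adjusted p = 7.84e-09). Mixed libraries went from 50.1 ± 3.83 to 26.8 ± 1.75 CPM (log2 fold change -0.93, adjusted p = 5.26e-09). No NIR and IR groups overlapped, and irradiated HCT116 cultures still held more E2F2 mRNA than untreated MCF10A cultures.

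E2F3, the other activator, did not fall. In MCF10A its NIR libraries read 54.7, 45.7 and 44.4 CPM and its IR libraries 48.8, 50.3 and 54.6 CPM. These groups overlapped (log2 fold change 0.06, SE 0.073, adjusted p = 0.479). In HCT116 it went from 64.0, 62.1 and 60.2 CPM to 79.8, 79.5 and 83.9 CPM, every IR library above every NIR library (log2 fold change 0.39, SE 0.064, adjusted p = 1.76e-05). The mixed libraries were at 70.8 ± 7.66 and 80.6 ± 2.76 CPM and overlapped (log2 fold change 0.16, adjusted p = 0.0663), and the change passed without Mixed NIR replicate 1, the highest NIR library at 79.6 CPM (log2 fold change 0.24, adjusted p = 0.00736), as well as with upper-quartile factors, library size alone or all 18 libraries in a common fit (0.19 to 0.20).

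E2F4, the most abundant E2F mRNA per length in these cells, moved little. It was at 72.0, 75.5 and 68.3 CPM in MCF10A NIR and at 57.0, 62.2 and 66.2 CPM in IR, a small fall without overlap (log2 fold change -0.24, SE 0.063, adjusted p = 0.00177). In HCT116 the values were 71.9, 71.2 and 76.7 CPM in NIR and 78.4, 68.9 and 80.6 CPM in IR, which overlapped (log2 fold change 0.06, SE 0.070, adjusted p = 0.508). The mixed groups, at 75.5 ± 2.51 and 76.3 ± 1.12 CPM, overlapped as well (log2 fold change -0.01, adjusted p = 0.905).

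E2F5, the second repressor that binds pocket proteins, changed in opposite directions. MCF10A libraries held 12.3, 11.6 and 10.8 CPM in NIR and 6.06, 8.57 and 8.44 CPM in IR, all IR values lower (log2 fold change -0.61, SE 0.14, adjusted p = 0.000412). HCT116 libraries held 14.6, 13.8 and 13.5 CPM in NIR and 17.0, 18.0 and 16.4 CPM in IR, all IR values higher (log2 fold change 0.31, SE 0.11, adjusted p = 0.0182). The HCT116 call was lost without HCT116 NIR replicate 2 (0.30, adjusted p = 0.054) or IR replicate 2 (0.27, adjusted p = 0.0733). In the mixed cultures E2F5 rose from 11.5 ± 0.77 to 15.7 ± 1.29 CPM (log2 fold change 0.43, adjusted p = 0.00287). The E2F5 gene, on chromosome 8, overlaps C8orf59 on the other strand, and since no source here says whether strand was used in counting, reads of these neighbours may not have been told apart.

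E2F6, a repressor that works within the Polycomb complex PRC1.6, fell in MCF10A from 24.4, 24.6 and 22.6 CPM to 19.7, 18.7 and 19.8 CPM without overlap (log2 fold change -0.32, SE 0.088, adjusted p = 0.00275). In HCT116 it was at 36.2, 36.5 and 32.3 CPM and at 32.4, 34.5 and 35.8 CPM, groups that overlapped (log2 fold change -0.02, SE 0.083, adjusted p = 0.831). The mixed values, 36.6 ± 3.90 and 33.7 ± 3.20 CPM, overlapped too (log2 fold change -0.15, adjusted p = 0.187), although the fall passed without Mixed NIR replicate 3, the lowest NIR library (-0.24, adjusted p = 0.0374).

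The atypical repressors fell by different amounts. E2F8 went from 9.41, 9.58 and 9.56 CPM to 2.87, 2.15 and 2.26 CPM in MCF10A, where 25.5% of the NIR mean remained (log2 fold change -2.00, SE 0.17, adjusted p = 3.97e-11). In HCT116 it went from 44.4, 40.9 and 42.7 CPM to 14.3, 16.3 and 18.9 CPM, or 38.7% of the NIR mean (log2 fold change -1.37, SE 0.098, adjusted p = 5.17e-11). No E2F8 groups overlapped, and each irradiated HCT116 library exceeded each untreated MCF10A library. The smallest count behind these values was 59, in an irradiated MCF10A library. E2F7 was at 84.9, 81.8 and 79.8 CPM in MCF10A NIR and at 70.7, 62.1 and 63.7 CPM in IR, a fall to 79.7% (log2 fold change -0.35, SE 0.057, adjusted p = 7.16e-06). Its HCT116 values went from 66.5, 66.6 and 58.7 CPM to 44.8, 39.3 and 41.9 CPM, a fall to 65.7% (log2 fold change -0.60, SE 0.076, adjusted p = 5.18e-07). E2F7 groups did not overlap in either line. In the mixed cultures E2F8 went from 40.2 ± 3.30 to 15.7 ± 0.58 CPM (log2 fold change -1.38, adjusted p = 2.59e-11) and E2F7 from 67.7 ± 4.17 to 43.7 ± 2.97 CPM (-0.66, adjusted p = 1.88e-07).

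RBL1 fell in both lines. The MCF10A libraries went from 68.5, 64.7 and 69.9 CPM to 36.0, 37.0 and 39.2 CPM, which left 55.2% of the NIR mean (log2 fold change -0.88, SE 0.063, adjusted p = 1.93e-12). In HCT116 the values were 50.2, 49.8 and 45.9 CPM before and 17.0, 18.7 and 20.0 CPM after irradiation, which left 38.1% (log2 fold change -1.39, SE 0.087, adjusted p = 5.44e-12). All IR libraries lay well below all NIR libraries of their line, and the mixed cultures went from 55.3 ± 1.56 to 22.1 ± 1.89 CPM (log2 fold change -1.34, adjusted p = 8.71e-12).

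RB1 changed far less than RBL1. It was at 150.6, 134.7 and 147.1 CPM in MCF10A NIR and at 135.6, 131.6 and 131.7 CPM in IR, with the first IR library above the second NIR library (log2 fold change -0.14, SE 0.048, adjusted p = 0.0155). This call was lost with upper-quartile factors (-0.05, adjusted p = 0.36) and without MCF10A NIR replicate 1 (-0.11, adjusted p = 0.0933) or NIR replicate 3 (-0.12, adjusted p = 0.0595). In HCT116 RB1 was at 110.8 ± 2.58 and 103.6 ± 3.43 CPM (log2 fold change -0.09, SE 0.060, adjusted p = 0.223). Every IR library there was below every NIR library, although the change did not pass. The mixed libraries went from 119.8, 119.2 and 130.7 CPM to 98.4, 104.5 and 107.9 CPM, with no overlap (log2 fold change -0.28, SE 0.061, adjusted p = 0.000709). LPAR6 lies within RB1 on the other strand and was at 10.3 ± 0.88 CPM in MCF10A NIR and 0.90 ± 0.37 CPM in HCT116 NIR.

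**Figure D3:**
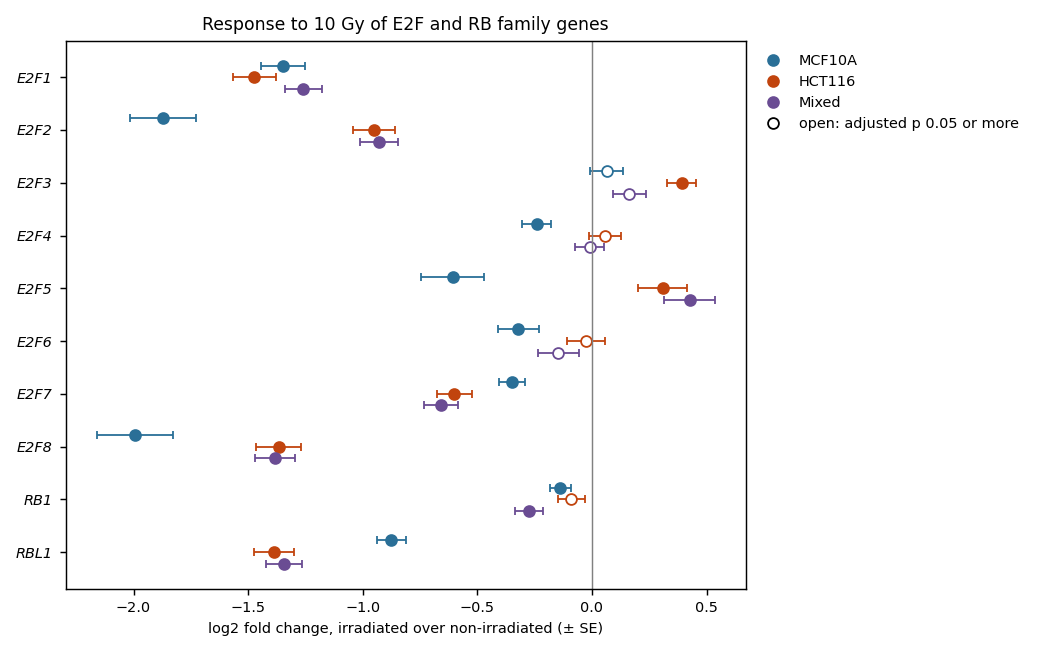
Log2 fold change of IR over NIR (horizontal axis, ± SE from the edgeR fit, 3 against 3 libraries) for the 10 genes in MCF10A, HCT116 and mixed cultures, open where the adjusted p was 0.05 or more. E2F5 is at -0.61 in MCF10A but 0.31 in HCT116 and 0.43 in the mixed cultures, and RBL1 is at -0.88, -1.39 and -1.34.

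Whether the lines responded unequally was tested as an interaction over the 12 monoculture libraries. This fit had its own filter and TMM factors, so its differences are not exactly those between the responses given above for each line. Of the 10 genes, 5 passed, 3 with the higher (more positive) response in HCT116 and 2 with the lower, against 37.3% of all genes, 15.4% higher and 21.9% lower. In this fit the median difference over all 18179 genes was -0.10, with 2801 genes higher and 3980 lower. That balance turned on other settings. Leaving out MCF10A IR replicate 1, 2 or 3 gave medians of 0.0055, 0.0081 and 0.0069, with 3343 higher and 2986 lower in the first case, and without HCT116 IR replicate 2 the median was -0.01, with 3382 higher and 2970 lower. No filter gave 3525 higher and 3267 lower, and all 18 libraries in a common fit gave 3565 and 3318. The response of E2F2 was higher in HCT116 by 0.84 (SE 0.16, adjusted p = 0.000143), that of E2F5 by 0.84 (SE 0.18, adjusted p = 0.000511) and that of E2F8 by 0.55 (SE 0.18, adjusted p = 0.0145). For E2F2 and E2F8 this is a lesser fall, and for E2F5 a rise in place of a fall. RBL1 fell further in HCT116 (difference -0.59, SE 0.10, adjusted p = 5.59e-05). These 4 calls were kept under all 7 alternative settings and on leaving out each library. E2F7 also fell further in HCT116 (difference -0.33, SE 0.095, adjusted p = 0.0076). That call was lost with no filter on low counts (-0.23, adjusted p = 0.0918), with all 18 libraries in a common fit (-0.23, adjusted p = 0.0717), and without MCF10A IR replicates 1 (-0.17), 2 (-0.26) or 3 (-0.24) or HCT116 IR replicate 2 (-0.17).

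For E2F1 the difference was -0.20 (SE 0.13, adjusted p = 0.235) and for RB1 -0.03 (SE 0.074, adjusted p = 0.815). Those of E2F3 (0.25, SE 0.10, adjusted p = 0.0525), E2F4 (0.22, SE 0.099, adjusted p = 0.082) and E2F6 (0.22, SE 0.12, adjusted p = 0.146) missed the threshold but passed under some settings. E2F3 passed under 5 of the 7 alternatives and on leaving out 6 of the 12 libraries, with differences of 0.24 to 0.40 where it passed. E2F4 passed under 3 alternatives and on leaving out 5 libraries (0.26 to 0.39), and E2F6 under 1 alternative and on leaving out 2 libraries (0.32 to 0.34).

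**Figure D4:**
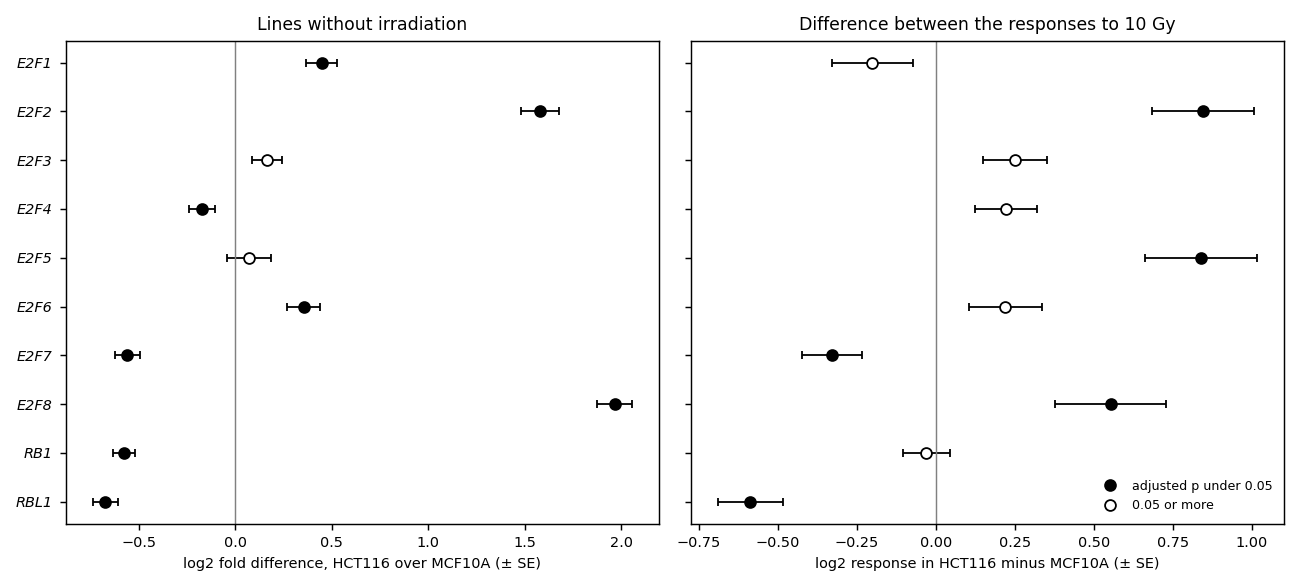
Left, log2 difference between HCT116 and MCF10A without irradiation, and right, log2 difference between their responses to 10 Gy (points with SE, filled where the adjusted p was under 0.05). E2F8 is at 1.97 on the left and 0.55 on the right, whereas RBL1 is at -0.68 and -0.59.

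The mixed cultures were set against HCT116, the line that supplied most of their RNA. Without irradiation, none of the 10 genes passed edgeR's test, against 2.04% of all genes tested, and DESeq2 called 0. At an unadjusted p under 0.05 by edgeR there were 5 of the 10, against 2367 of all 16455 genes. The log2 differences of the 10, mixed over HCT116, ran from -0.27 for E2F5 to 0.23 for E2F2. E2F5 stood at 12.2, 11.5 and 10.7 CPM in the mixed libraries, all below the 14.6, 13.8 and 13.5 CPM of HCT116. RB1 stood at 119.8, 119.2 and 130.7 CPM, all above HCT116. For E2F1, E2F2, E2F3 and RBL1 every mixed library was also above every HCT116 library, while E2F4, E2F6, E2F7 and E2F8 overlapped. How many of all genes lacked overlap was not counted. The responses to irradiation differed for none of the 10 genes by edgeR's interaction test, against 0.83% of all genes, and DESeq2 called 0. An unadjusted p under 0.05 by edgeR was reached by 2 of the 10, against 2272 of all 18072 genes. The differences of the 10, mixed minus HCT116, ran from -0.22 for E2F3 to 0.22 for E2F1. A missed threshold does not show that the cultures were alike.

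Genes that work with the E2F and RB proteins were counted from lists. Of the DP partners and RBL2, TFDP3 was too low to test. TFDP1, the main DP partner, fell in MCF10A from 266.8 ± 4.35 to 183.3 ± 9.91 CPM (log2 fold change -0.56) and in HCT116 from 229.8 ± 10.7 to 196.6 ± 7.24 CPM (-0.22). TFDP2 rose in HCT116 (0.48) and the mixed cultures (0.49) and was at -0.11 in MCF10A without passing. RBL2, which encodes p130, was at -0.12 in MCF10A and -0.15 in HCT116 without passing, and rose in the mixed cultures (0.24). Its NIR level was 70.8 ± 0.64 CPM in HCT116 but 55.1 ± 2.86 CPM in the mixed cultures. In IR it was 63.5 ± 1.77 and 66.1 ± 2.17 CPM. RBL2 passed as lower in the NIR mixtures than in NIR HCT116 (log2 difference -0.35), against 2.04% of all genes that passed. Its response was also higher there (0.40, mixed minus HCT116), where 0.83% of all genes passed. The MuvB core with its MYB and FOXM1 partners, 8 genes here, together control late cell cycle genes. Of these 8, 7 fell in each of MCF10A, HCT116 and mixed cultures, against 29.2%, 27.2% and 25.4% of all genes. LIN37 did not pass in any, and the median log2 fold changes of the 8 were -0.80, -0.76 and -0.78. The log2 fold changes in MCF10A and HCT116 were -1.54 and -1.41 for MYBL2, -1.30 and -1.33 for FOXM1, -1.30 and -0.74 for LIN9, and -0.97 and -1.42 for MYBL1. LIN52, LIN54 and RBBP4 were at -0.59, -0.39 and -0.63 in MCF10A and at -0.75, -0.77 and -0.56 in HCT116. LIN37 was at 0.0053 (SE 0.33) and 0.33 (SE 0.32), at low levels of 1.45 ± 0.42 CPM in MCF10A NIR and 1.73 ± 0.62 CPM in HCT116 NIR.

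E2F target genes fell as a group. All 32 fell in MCF10A and in the mixed cultures, and 31 of 32 fell in HCT116, where PCNA, the DNA polymerase clamp, did not pass. The share of all genes tested that fell was 29.2% in MCF10A, 25.4% in the mixed cultures and 27.2% in HCT116. The medians of the 32 were -1.16, -1.07 and -1.17 in that order. Among the deepest falls were that of GINS2 (-1.55), of the replicative helicase, in MCF10A, and those of the helicase subunit MCM7 (-1.44) and the histone methyltransferase EZH2 (-1.42) in HCT116. In the mixed cultures RRM2 (-1.46), a subunit of ribonucleotide reductase, and MCM7 (-1.43) fell most. MCM7 was at 229.3 ± 5.27 CPM in MCF10A NIR and 98.3 ± 3.56 CPM in IR, and in HCT116 at 478.6 ± 19.5 and 175.4 ± 6.10 CPM. Between the lines, the response was higher in HCT116 for 5 of the 32 and lower for 9, with a median difference of -0.04. Over all genes 15.4% were higher and 21.9% lower, with the median of -0.10 that moved to near 0 on leaving out an MCF10A IR library. PCNA (0.86) was among the highest such differences and POLA2 (-0.78) was the lowest, named after their values were seen.

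Among the 9 cyclins and kinases that phosphorylate RB proteins, 3 rose and 5 fell in MCF10A, and of 8 tested in HCT116, 4 rose and 4 fell. Over all genes tested, 26.2% rose and 29.2% fell in MCF10A, 25.3% and 27.2% in HCT116, and 24% and 25.4% in the mixed cultures. CCNA2, cyclin A, fell most in both lines (-1.66 and -1.51). CCND1, cyclin D1, rose in both, in MCF10A from 277.8 ± 13.3 to 455.6 ± 15.1 CPM (0.69) and in HCT116 from 497.3 ± 10.6 to 1861 ± 46.4 CPM (1.91). CCND2 rose in MCF10A from 7.39 ± 0.84 to 18.3 ± 1.99 CPM (1.28) and had 0 counts in the 6 HCT116 libraries, which allows up to 0.0155 CPM by 3 counts of their total, for counting error only. CCNE2, cyclin E2, fell in MCF10A (-1.14), and in HCT116 CDK2 fell (-0.98) while CDK6 rose (1.13). Mixed cultures had 4 rises and 4 falls, led by CCND1 (1.54), CDK6 (0.80), CCNA2 (-1.46) and CCNE2 (-1.16). Of the CDK inhibitors, CDKN1A (p21) rose in both lines, in MCF10A from 171.8 ± 10.4 to 590.4 ± 26.6 CPM (1.76) and in HCT116 from 317.8 ± 39.3 to 1593 ± 90.2 CPM (2.33). It was the only gene of this list that passed as higher in MCF10A, HCT116 or mixed cultures. The list had 3 falls of 5 tested in MCF10A and 5 of 7 in HCT116, against 29.2% and 27.2% of all genes. These falls were led by CDKN2C (-1.50 and -1.92) and CDKN1C (-0.72 and -2.52). In the mixed cultures CDKN1A rose (2.19), and of the 5 that fell CDKN2C (-2.03) and CDKN1C (-2.02) led. CDKN2A had 0 counts in the 6 MCF10A libraries, which allows up to 0.0160 CPM, and was at 17.1 ± 0.68 CPM in HCT116 NIR, named after its values were seen.

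Of the 9 PRC1.6 partners of E2F6, 1 rose and 4 fell in MCF10A and 2 rose and 3 fell in HCT116 (medians -0.11 and -0.04), near the 55.4% and 52.5% of all genes that passed in these lines. CBX3 fell in both lines (-0.62 and -0.42), PCGF6 fell in MCF10A (-0.36) and RYBP in HCT116 (-0.41), and MAX rose in both (0.19 and 0.73), as did MGA in HCT116 (0.32). The mixed cultures had 2 rises, MAX (0.62) and MGA (0.27), and 3 falls, of which CBX3 (-0.49) and RYBP (-0.45) were the largest. Of 6 apoptosis genes that E2F1 can activate, 0 rose and 2 fell in MCF10A by edgeR, TP73 (-0.92) and BCL2L11 (-0.53). TP73 was low in MCF10A, at 3.66 ± 1.31 CPM in NIR and 1.96 ± 0.80 CPM in IR, and these groups overlapped. Among all genes 26.2% rose and 29.2% fell in MCF10A, 25.3% and 27.2% in HCT116, and 24% and 25.4% in the mixed cultures. In HCT116, BCL2L11, a BH3-only gene, rose (0.81) while TP73 (-0.32) and PPP1R13B (-0.42) fell. In the mixed cultures BCL2L11 rose (0.57), and 3 genes fell, TP73 (-0.49) the most.

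**Figure D5:**
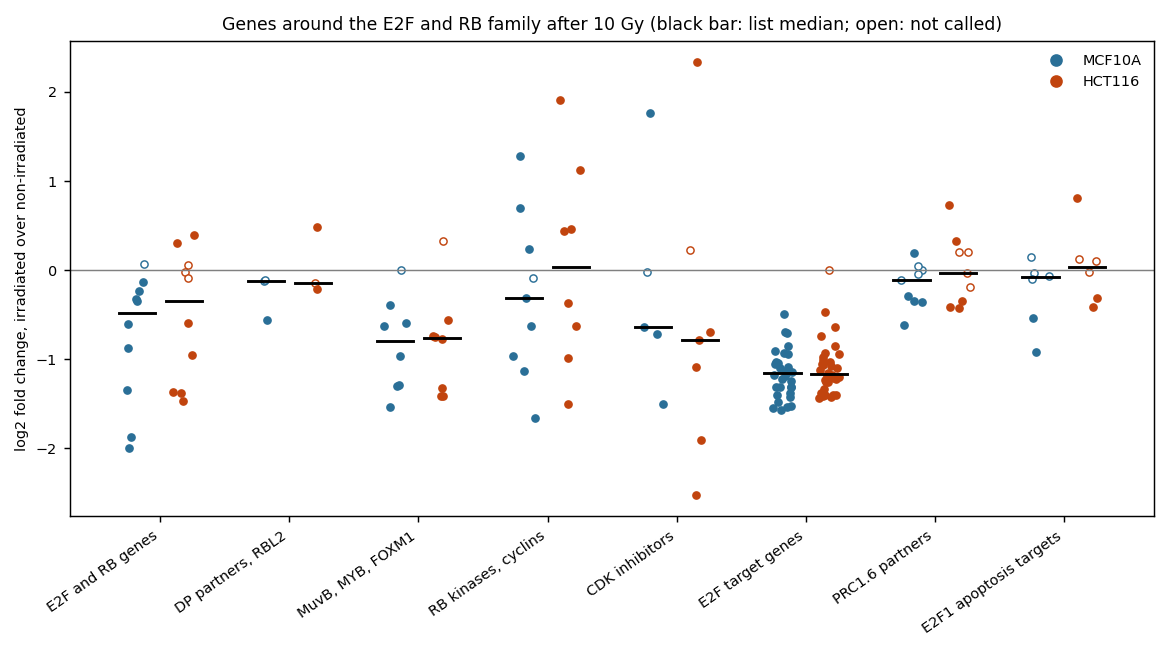
Log2 fold change of IR over NIR (vertical axis) for each tested gene of the lists in MCF10A and HCT116 (points, open where the adjusted p was 0.05 or more; black bars are list medians). The 32 E2F target genes lie below 0 in MCF10A with a median of -1.16, and in HCT116 with a median of -1.17 apart from PCNA near 0, while CDKN1A stands at 1.76 and 2.33.

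Likeness of pattern was measured as Pearson r of log2(CPM + 1) over the 18 libraries, among 11311 genes at a mean of at least 5 CPM. It is a description, since the libraries share 3 kinds of culture and a treatment. E2F1 was most like the condensin genes NCAPH (0.993) and NCAPG2 (0.993) and the replication kinase gene CDC7 (0.990). E2F2 was most like UNG (0.990), USP10 (0.989) and SNHG1 (0.989), E2F8 like BRI3BP (0.991), HELLS (0.989) and CBX2 (0.988), and RBL1 like the cohesin gene SMC1A (0.995), PHTF2 (0.991) and USP1 (0.988). E2F7 was most like KIF14 (0.973), KBTBD2 (0.972) and HNRNPUL1 (0.967). The nearest genes were PRDM11 (0.969), APPBP2 (0.964) and LINS1 (0.961) for E2F3, TNRC6A (0.970), ANKRD50 (0.962) and ECPAS (0.959) for RB1, and BOP1 (0.908), HDAC4 (0.873) and SLC29A1 (0.872) for E2F4. E2F5 was nearest to GPD1L (0.939), IDH3A (0.938) and NAA25 (0.936), and E2F6 to FABP5 (0.980), TRUB1 (0.976) and PLS1 (0.975).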

How the data were processed

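Per the labels' protocols, RNA was extracted with TriZol and libraries were made with a stranded mRNA kit. The deposited tables hold raw counts per gene symbol, 1 table per library, made with fastp, STAR and featureCounts on GRCh38, per the submitters' processing notes. Versions, strand setting and annotation are not given in the sources used here. Low counts were mostly even (68.3% of values from 1 to 10), so counts halved were an alternative. No replicate pair agreed within sampling noise.

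Each comparison used edgeR 4.0.16 in R 4.3.3 on the libraries compared, with TMM, filterByExpr and the 2-sided quasi-likelihood test, adjusted with Benjamini-Hochberg over all genes tested. A gene passed at an adjusted p under 0.05. CPM is counts over the library total. Replicate numbers were not used to pair libraries, and the residual correlation of same-numbered libraries was -0.043 to 0.109 over 45 pairs. The pairs of HCT116 NIR with Mixed NIR, at 0.0566, 0.00513 and 0.109, held the highest. Between those groups the replicate block called 716 genes against 335 without it, and a shared replicate effect there was not tested. Exon lengths and positions came from GENCODE v29 and promoters from RefSeq. The MCF10A share was the median ratio over genes of at least 20 CPM in a line whose level stayed under 1 CPM throughout the libraries of the other line. Alternatives were DESeq2 1.42.0, upper-quartile factors, library size alone, no filter, a replicate block, all 18 libraries in a common fit, halved counts and leaving out each library. The tests were checked on simulated data in which few genes changed, in random directions and at a fixed spread. Since many genes changed in these data, that check does not cover the choice of scaling factors.

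The genes and lists were chosen with earlier results of these data known. All 10 genes, the DP and MuvB lists whole, from each other list the 2 genes that passed with the largest change in each direction per irradiation comparison, and the 3 genes most alike to each of the 10 are named, with exceptions marked. Some genes that the rule names are not reported here.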

Additional observations from a re-analysis of the deposited data

Results flagged for a closer look

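The responses of the lines to 10 Gy differed by the interaction test for 5 of the 10 genes, given here as the log2 response in HCT116 minus that in MCF10A. The responses in brackets come from the separate fit of each line, with its own filter and TMM factors. They therefore do not subtract exactly to the differences of the interaction fit, where the median difference over all genes was -0.10. The difference was 0.84 for E2F2 (-0.95 in HCT116, -1.87 in MCF10A) and 0.84 for E2F5 (0.31 and -0.61). It was 0.55 for E2F8 (-1.37 and -2.00), -0.59 for RBL1 (-1.39 and -0.88) and -0.33 for E2F7 (-0.60 and -0.35), of which the last did not hold under every alternative.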

How the results depend on the processing

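The counts of these genes that passed stayed within 1.5 times of the reported count in each comparison under every alternative and on leaving out each library. DESeq2, no filter, the replicate block and all 18 libraries in a common fit called 576, 671, 716 and 768 genes between mixed and HCT116 cultures without irradiation, against 335 as reported, and leaving out each library gave 145 to 313. For the response difference of these cultures, DESeq2 called 327 genes and no filter 336, against 150, and leaving out each library gave 64 to 197. The MCF10A share of the mixtures was 0.345% (NIR) and 1.07% (IR) with markers of at least 50 CPM, and 0.528% and 3.59% by non-negative least squares. In each such case the cause was not tested.

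With the replicate number as a block, 9, 7 and 7 of the 10 genes passed after irradiation in MCF10A, HCT116 and mixed cultures, as without it, and it changed no count of members.

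Some small changes turned their sign, of which E2F4 between the lines had passed. E2F4 in the mixed cultures was at 0.025 with upper-quartile factors, 0.016 with library size alone and 0.029 with all 18 libraries, and between the lines at 0.029 and 0.026 with the first 2 of these. The RB1 response difference of the lines was 0.019, 0.071 and 0.068 with library size alone, no filter and all 18 libraries. That of E2F8 between mixed and HCT116 cultures was 0.0035, 0.018 and 0.0098 with upper-quartile factors, library size alone and all 18 libraries. Leaving out each library gave -0.073 to 0.012 for E2F6 in HCT116, -0.061 to 0.085 for the RB1 difference between the lines, and, between mixed and HCT116 cultures, -0.068 to 0.084 for E2F2, -0.12 to 0.068 for E2F8 and -0.028 to 0.091 for RBL1.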
